A study of Rattus norvegicus with 12 samples.

Results

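The proteasome genes were the genes on the array whose symbol begins with Psm, followed by a class letter of a to g and a number, and that were named for a probe set alone. There were 46 of them among 14217 genes measured, carried by 60 of 31042 probe sets, and 9 of the 46 had several probe sets, whose mean was taken. They were sorted by role. The constitutive core particle had 7 alpha and 6 beta subunits, and the immunoproteasome 3 (Psmb8, Psmb9 and Psmb10). The regulatory particle had 6 ATPases and 14 other proteins, among them chaperones of its assembly such as Psmd5 and Psmd10. A further 8 were activators, inhibitors and assembly chaperones of the core. The remaining 2, Psmc3ip and Psme3ip1, carry the name of a proteasome partner and are not part of the particle. Psmb6, Psme3 and a further probe set of Psma3 shared their probe sets with the symbols of other genes and were not analysed here.

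Total RNA of long bone was hybridized to Affymetrix rat arrays in female Sprague-Dawley rats of 4 groups, 3 arrays per group, each array a pool of 2 to 3 rats. The OVX group was ovariectomized on postnatal day (PND) 60 and fed the casein control diet, the LTBB OVX group was ovariectomized and fed 10% blueberry (BB) powder between PND 20 and sacrifice, the STBB OVX group was ovariectomized and fed that diet between PND 20 and PND 34 only, and the Sham group had a sham operation and the control diet. All rats were sacrificed on PND 81. Femur is the tissue named in the labels, and right tibia the one named in the methods. The deposited log2 values are centred on a median of 0 for every probe set, so they compare arrays within a gene, and the levels of 2 genes cannot be compared. Long bone can hold marrow, muscle remnants and cartilage besides bone cells, and in such bulk samples fewer cells of a type and less RNA per cell cannot be told apart. The replicates are pools, so each p-value reflects the spread between them.

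The proteasome is the barrel-shaped protease that degrades ubiquitin-tagged proteins. Its core particle stacks rings of alpha subunits, which gate the entry, around rings of beta subunits, some of which cut peptide bonds, and a regulatory particle binds the ubiquitin chain and feeds the unfolded protein in through a ring of ATPases. Under interferon, cells exchange the catalytic beta subunits for those of the immunoproteasome, whose products are loaded on MHC class I, and proteasome activity in osteoblasts and osteoclasts is known to bear on bone formation and resorption.

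The promoters of the members were searched for what they share beyond their names. Of the 46 genes 42 matched a RefSeq promoter of the assembly GRCr8, taken as 250 bases before to 50 after the start site, and 4 motifs were searched on both strands. The CCAAT box stood in 22 of the 42 (52.4%), against 37.7% of all 27457 promoters. The core of the interferon response element, GAAANNGAA, stood in 9 (21.4%), against 9.5% of all promoters. The core of the antioxidant response element, TGACNNNGC, to which Nfe2l1 and Nfe2l2 bind, stood in 7 (16.7%), against 12.2%, and the core of the gamma-activated site, TTCNNNGAA, in 4 (9.52%), against 8.68%. Matches of different motifs overlapped in 1 place, in Psmb2, where the last base of a CCAAT box is the first of the antioxidant core. The stretches below stand before the start site of 6 members whose values are given later, with every match of the motifs in capitals. They were chosen for the genes with the largest fall and rise (Psmf1, Psmd13 and Psme2) and for subunits of the core that show the interferon and antioxidant elements (Psmb10, Psmb5 and Psmb2). Psmf1 and Psmd13 hold a CCAAT box read on the other strand, at chr3:160720983-160721027 on the minus strand and chr1:205394132-205394176 on the plus strand. The stretch of Psme2 holds 1 interferon core and that of Psmb10 holds 2 that overlap each other, at chr15:33052776-33052824 on the minus strand and chr19:50743337-50743385 on the minus strand. A further interferon core of Psmb10, at base -17 from the start site, lies outside its stretch. Psmb5 and Psmb2 hold the antioxidant core, at chr15:32047411-32047459 on the minus strand and chr5:144254970-144255018 on the plus strand.
Psmf1: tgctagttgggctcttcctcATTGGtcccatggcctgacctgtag
Psmd13: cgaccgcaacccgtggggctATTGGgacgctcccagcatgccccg
Psme2: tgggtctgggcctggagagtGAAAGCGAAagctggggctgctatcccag
Psmb10: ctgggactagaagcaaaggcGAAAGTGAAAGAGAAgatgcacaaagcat
Psmb5: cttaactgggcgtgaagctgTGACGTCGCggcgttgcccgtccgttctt
Psmb2: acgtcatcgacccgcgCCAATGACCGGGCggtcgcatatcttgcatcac
The letters are those of the reference genome and say nothing of binding in these bones.

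The OVX and Sham arrays differed in markers of tissue content as well as in surgery. Among all genes 28.6% fell and 30.3% rose by limma at an adjusted p of 0.05. All 10 markers of skeletal muscle fell in OVX pools, with a mean centred value of -3.34 to -1.38 in OVX pools, against 3.45 to 4.26 in Sham pools. Erythroid markers fell for 7 of 8 genes (-0.31 to 0.10 in OVX pools, against 2.45 to 2.88 in Sham pools), neutrophil markers for 5 of 5 (-0.31 to 0.034 in OVX pools, against 2.47 to 3.01 in Sham pools) and DNA replication genes for 8 of 8 (-0.10 to 0.066 in OVX pools, against 1.09 to 1.54 in Sham pools). Markers of cartilage rose for 7 of 8 genes (-0.050 to 0.22 in OVX pools, against -4.86 to -4.70 in Sham pools), of osteoblasts for 8 of 8 (0.0039 to 0.050 in OVX pools, against -1.93 to -1.90 in Sham pools) and of osteoclasts for 5 of 5 (-0.034 to 0.15 in OVX pools, against -3.11 to -2.79 in Sham pools). Since the values are centred, whether a marker was near 0 in a group cannot be read from them. The part of these shifts in the differences of the proteasome genes was not tested.

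More proteasome genes fell than rose in OVX bones against Sham bones, mostly by small amounts. By limma at an adjusted p of 0.05, 21 of the 46 fell (45.7%) and 7 rose (15.2%), and among all genes 28.6% fell and 30.3% rose. The 28 members that passed in either direction were 60.9%, near the 58.9% of all genes. OVX and Sham pools stood apart without overlap for 30 members (65.2%), against 61.2% of all genes. The median log2 fold change was -0.14 for the members and 0.0047 for all genes. The median size of the change, in either direction, was 0.229 for the members and 0.308 for all genes, and 1 member (2.17%) changed by a log2 of 1 or more, against 16.6% of all genes. Psmf1 was lowest, at -1.25, and Psme2 highest, at 0.51. In an F-test over the 4 groups 25 members passed (54.3%), against 55.6% of all genes. When the arrays were quantile normalized once more, 3 members fell (Psmf1, Psmd13 and Psme3ip1) and 1 rose (Psme2), while 2006 genes passed in all in place of 8367. The other 24 calls ended under that setting and kept their sign. That step was run on values already centred for every probe set, and it gives all 12 arrays the same distribution. Calls lost under it cannot be told apart from an effect of the step itself.

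**Figure D1:**
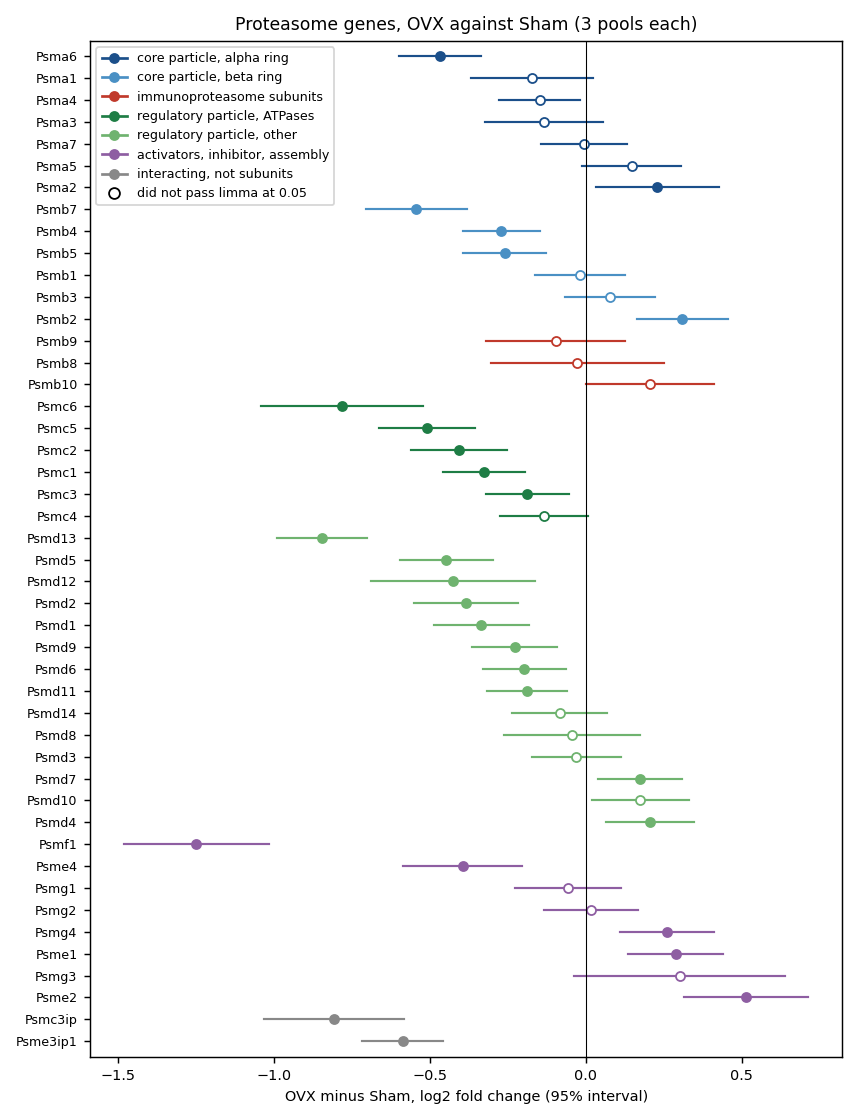
Log2 fold change of OVX against Sham for the 46 proteasome genes (x axis), 1 row per gene, coloured by role, with the 95% interval of limma from 3 pools per group. Filled points passed an adjusted p of 0.05. Most points lie left of 0, Psmf1 lies farthest left at -1.25, and all 6 ATPases are below 0.

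Of the 13 constitutive core subunits 4 fell, 2 rose and 7 did not pass, and their log2 fold changes had a median of -0.13. The share that fell, 30.8%, was near the 28.6% of all genes, and the share called in either direction was 46.2%, against 58.9% of all genes. The alpha ring, which gates the barrel, had 1 gene that fell. Psma6 had centred log2 values of -0.023, -0.045 and -0.071 in OVX pools, against 0.49, 0.41 and 0.37 in Sham pools. Psma6 was lower in every OVX pool, with a difference of -0.47 ± 0.0602, adjusted p = 1.76e-05 (limma, log2 ± SE, n = 3 pools each). Psma2 had centred log2 values of 0.0078, 0.15 and -0.0078 in OVX pools, against -0.069, -0.088 and -0.38 in Sham pools. The pools of Psma2 did not overlap, and the rise was 0.23 ± 0.0904, adjusted p = 0.0438 in limma. It rested on narrow ground, since it no longer passed without Sham pool 3, without any of the OVX or LTBB OVX pools or without STBB OVX pool 1 or 2, and without Sham pool 3 it was 0.13 (adjusted p = 0.172, limma). Psma1 had centred log2 values of -0.22, 0.15 and -0.13 in OVX pools, against 0.051, 0.085 and 0.17 in Sham pools. Psma5 had centred log2 values of 0.036, 0.051 and -0.076 in OVX pools, against -0.022, -0.14 and -0.27 in Sham pools. Both overlapped between groups and did not pass in limma, at -0.17 (adjusted p = 0.12) and 0.15 (adjusted p = 0.102). Psma1 passed without OVX pool 2 (-0.28, adjusted p = 0.00772) and Psma5 without Sham pool 1 (0.21, adjusted p = 0.0287). Psma7 had centred log2 values of 0.022, -0.0016 and -0.038 in OVX pools, against 0.047, 0.032 and -0.083 in Sham pools. That is the smallest difference among the members, -0.0044, with a 95% interval of -0.14 to 0.13. Psma3, at -0.13, overlapped between groups, and Psma4, at -0.15, lay at the threshold without overlap (adjusted p = 0.05), passing without Sham pool 3 (-0.19, adjusted p = 0.0138).

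In the beta ring 3 of 6 genes fell and 1 rose, where 28.6% of all genes fell and 30.3% rose. Psmb7 had centred log2 values of -0.091, -0.072 and -0.076 in OVX pools, against 0.45, 0.37 and 0.56 in Sham pools. Psmb7 encodes the trypsin-like site, and it was lower in all OVX pools, with a difference of -0.54 ± 0.0743, adjusted p = 3.03e-05 in limma. Psmb5 had centred log2 values of 0.047, -0.00099 and -0.10 in OVX pools, against 0.25, 0.24 and 0.24 in Sham pools. Psmb5 encodes the chymotrypsin-like site and also fell without overlap, with a difference of -0.26 ± 0.0614, adjusted p = 0.00254 in limma, with its 3 probe sets all below 0. Psmb4 had centred log2 values of -0.0049, -0.0090 and -0.030 in OVX pools, against 0.31, 0.23 and 0.23 in Sham pools. Psmb2 had centred log2 values of 0.015, 0.090 and -0.0045 in OVX pools, against -0.17, -0.28 and -0.38 in Sham pools. Both encode beta subunits without a catalytic site, and they went opposite ways. Psmb4 fell by 0.27 (adjusted p = 0.00112) and Psmb2 rose by 0.31 (adjusted p = 0.00143), both by limma. Psmb1 had centred log2 values of -0.10, 0.030 and 0.014 in OVX pools, against 0.11, -0.081 and -0.023 in Sham pools. Psmb1 and Psmb3, at -0.018 and 0.077, overlapped between the groups. With the arrays quantile normalized again, none of the 13 core subunits passed in either direction.

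None of the 3 immunoproteasome genes passed the test in limma, and 0 of them had an unadjusted p under 0.05. Psmb8 had centred log2 values of -0.017, 0.22 and -0.074 in OVX pools, against 0.21, 0.23 and -0.23 in Sham pools. Psmb9 had centred log2 values of 0.0033, 0.072 and 0.077 in OVX pools, against 0.32, 0.22 and -0.092 in Sham pools. Psmb10 had centred log2 values of 0.22, -0.035 and 0.19 in OVX pools, against 0.052, -0.085 and -0.21 in Sham pools. All 3 overlapped between the groups, and Sham pool 3 was the lowest Sham pool for each. In limma, Psmb10 was 0.21 ± 0.0951, adjusted p = 0.0812, Psmb9 -0.10 ± 0.103, adjusted p = 0.452 and Psmb8 -0.026 ± 0.128, adjusted p = 0.877. Their 95% intervals were -0.00052 to 0.41, -0.32 to 0.13 and -0.30 to 0.25. Single pools set the calls: Psmb9 fell without Sham pool 3 (-0.22, adjusted p = 0.049), and Psmb10 rose without Sham pool 1 (0.27, adjusted p = 0.0353) or without OVX pool 2 (0.29, adjusted p = 0.0254). Set against the constitutive subunit that each replaces in the core, Psmb10 minus Psmb7 was 0.31, 0.037 and 0.26 in OVX pools, against -0.40, -0.46 and -0.78 in Sham pools. This difference did not overlap between groups, and neither did 61.2% of all genes taken singly. It averaged 0.20 ± 0.15 in OVX pools and -0.55 ± 0.20 in Sham pools (SD, n = 3 each). Its larger part was the fall of Psmb7 (-0.54), while the change of Psmb10 (0.21) did not pass. After a second quantile normalization the fall of Psmb7 did not pass either (adjusted p = 0.0738, limma). Psmb8 minus Psmb5 was -0.064, 0.22 and 0.022 in OVX pools, against -0.044, -0.0011 and -0.48 in Sham pools, and overlapped. The partner of Psmb9, Psmb6, was not analysed here. Immune cells make much of the immunoproteasome. Of their markers, 6 of 9 macrophage genes rose and 1 fell in OVX pools. Of T and NK cell genes 2 of 10 rose and 2 fell, and 2 of 4 B cell genes and 5 of 5 neutrophil genes fell. Among all genes 30.3% rose and 28.6% fell, and the part of immune cells in these values was not tested.

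**Figure D2:**
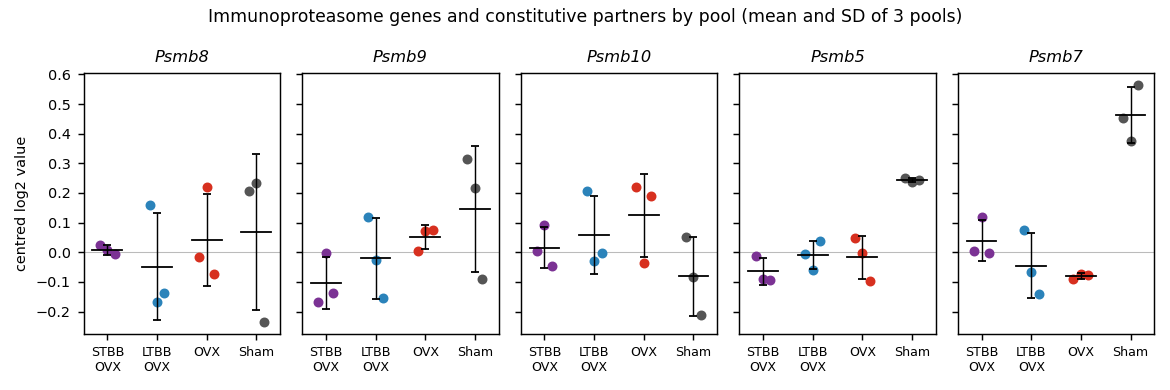
Centred log2 values (y axis) of the 3 immunoproteasome genes and of Psmb5 and Psmb7, the constitutive subunits that Psmb8 and Psmb10 replace, in the 3 pools of each group, with the mean and SD. Psmb5 and Psmb7 are highest in the Sham pools, whereas the OVX and Sham pools of Psmb8, Psmb9 and Psmb10 overlap.

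The genes of the regulatory particle moved mainly downward. Of its 20 genes, which include chaperones of its assembly, 13 fell, 2 rose and 5 did not pass. The log2 fold changes of the 20 had a median of -0.21. The share that fell was 65%, against 28.6% of all genes. In the ATPase ring, which unfolds substrates, 5 of 6 genes fell and the median was -0.37. Psmc6 had centred log2 values of -0.43, 0.090 and -0.26 in OVX pools, against 0.62, 0.57 and 0.54 in Sham pools. Psmc6 varied among OVX pools, where pool 2 was highest, and still did not overlap with Sham pools. Its difference was -0.78 ± 0.12, adjusted p = 8.34e-05 in limma, and its 3 probe sets gave -0.94, -0.74 and -0.66. Psmc5 had centred log2 values of -0.021, -0.086 and -0.052 in OVX pools, against 0.44, 0.35 and 0.58 in Sham pools. Psmc2 had centred log2 values of -0.19, 0.080 and -0.061 in OVX pools, against 0.33, 0.37 and 0.34 in Sham pools. Psmc1 had centred log2 values of -0.025, -0.074 and -0.048 in OVX pools, against 0.24, 0.25 and 0.34 in Sham pools. These 3 ATPases were lower in every OVX pool than in any Sham pool, by 0.51, 0.41 and 0.33 (adjusted p = 3.7e-05, 0.000245 and 0.000437 by limma). Psmc4 had centred log2 values of 0.095, -0.028 and 0.0094 in OVX pools, against 0.13, 0.17 and 0.18 in Sham pools. Psmc4 had the smallest change of the ring, -0.13 (adjusted p = 0.0982, limma), and its 2 probe sets disagreed, at 0.034 and -0.30. Psmc3 fell by 0.19 and did not pass without Sham pool 1 (-0.14, adjusted p = 0.0733), OVX pool 1 or OVX pool 3.

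Of the 14 other proteins of the regulatory particle, assembly chaperones included, 8 fell and 2 rose, with a median of -0.19. The shares of all genes that fell and rose were 28.6% and 30.3%. Psmd13 had centred log2 values of -0.15, -0.070 and -0.043 in OVX pools, against 0.85, 0.76 and 0.66 in Sham pools. Psmd13, a subunit of the lid, stood far apart between the groups, at -0.85 ± 0.0663, adjusted p = 1.57e-07 in limma, and passed under every alternative that was run. Psmd5 had centred log2 values of -0.062, -0.0055 and -0.023 in OVX pools, against 0.38, 0.50 and 0.37 in Sham pools. Psmd5, a chaperone for assembly of the base, fell by 0.45 (adjusted p = 8.55e-05, limma). Psmd12 had centred log2 values of -0.48, -0.027 and -0.22 in OVX pools, against 0.13, 0.052 and 0.37 in Sham pools. Psmd12, a further lid subunit, was the most variable member among the arrays of ovariectomized rats, with a range of 0.626 over their 9 pools, and fell by 0.43 (adjusted p = 0.00848, limma). Psmd2 had centred log2 values of -0.095, -0.10 and 0.0046 in OVX pools, against 0.38, 0.20 and 0.39 in Sham pools. Psmd2, a base subunit on which ubiquitin carriers dock, fell by 0.39 without overlap (adjusted p = 0.000738, limma). Psmd3 had centred log2 values of 0.043, -0.11 and 0.063 in OVX pools, against 0.012, 0.023 and 0.048 in Sham pools. Psmd3 had the smallest difference of the class, -0.030, and its pools overlapped. Psmd1, Psmd9, Psmd6 and Psmd11 also fell, by 0.19 to 0.33, but the probe sets of Psmd9 (-0.51 and 0.049) and of Psmd11 (-0.58, -0.15 and 0.17) disagreed, and Psmd6 did not pass without OVX pool 3 (-0.15, adjusted p = 0.0726). The 2 that rose were Psmd4, a ubiquitin receptor, at 0.20 (adjusted p = 0.0155), and Psmd7, the partner of the deubiquitinase Psmd14, at 0.17 (adjusted p = 0.0283). Psmd4 lost its call without Sham pool 2 (0.17, adjusted p = 0.0604), and Psmd7 lost it without Sham pool 1 (0.13, adjusted p = 0.104), Sham pool 2 or any OVX pool. Psmd14 itself was at -0.084 (adjusted p = 0.335). Psmd10 (gankyrin, a chaperone of the base) was at 0.18 and passed without Sham pool 2 (0.24, adjusted p = 0.0155), and Psmd8 was at -0.044 and passed as lower without Sham pool 3 (-0.18, adjusted p = 0.0358). After a second quantile normalization 1 of the 20 genes fell, Psmd13, and none rose.

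**Figure D3:**
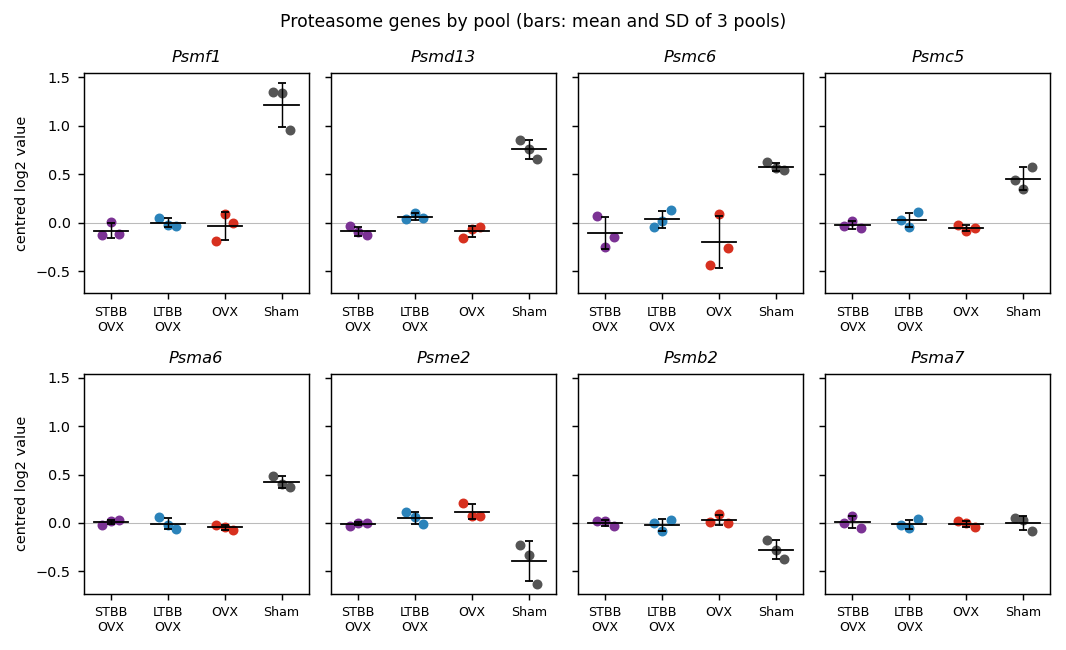
Centred log2 values (y axis) of 8 proteasome genes in the 3 pools of each group, with the mean and SD. Psmf1, Psmd13, Psmc6, Psmc5 and Psma6 are highest in the Sham pools, Psme2 and Psmb2 are lowest there, and Psma7 overlaps across groups.

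The activators, inhibitors and assembly chaperones went both ways. Of the 8 genes 3 rose (37.5%, against 30.3% of all genes) and 2 fell (25%, against 28.6%). Psmf1 had centred log2 values of -0.19, 0.094 and -0.0030 in OVX pools, against 1.35, 1.34 and 0.95 in Sham pools. Psmf1, named as an inhibitor of the core particle, had the largest change of all members, -1.25 ± 0.106, adjusted p = 3.52e-07 in limma, which is a 2.37-fold lower signal in OVX pools. Sham pool 3 was the lowest Sham pool and still stood far above every OVX pool. Psme2 had centred log2 values of 0.21, 0.076 and 0.071 in OVX pools, against -0.23, -0.33 and -0.63 in Sham pools. Psme2 encodes the beta subunit of the interferon-inducible 11S activator, and its promoter holds the interferon core shown above. It rose without overlap, by 0.51 ± 0.0916, adjusted p = 0.000295 in limma (1.43-fold). Its partner Psme1, the alpha subunit, rose by 0.29 (adjusted p = 0.00304, limma), with probe sets at 0.51 and 0.064. Psme4 had centred log2 values of -0.29, 0.015 and -0.044 in OVX pools, against 0.25, 0.33 and 0.28 in Sham pools. Psme4, an activator of another family, fell by 0.39 (adjusted p = 0.0017, limma), and all 3 probe sets were below 0. Psmg3 had centred log2 values of 0.27, 0.10 and -0.14 in OVX pools, against -0.33, 0.093 and -0.44 in Sham pools. Psmg2 had centred log2 values of 0.0056, 0.089 and -0.071 in OVX pools, against 0.034, -0.077 and 0.017 in Sham pools. Psmg1 to Psmg4 encode chaperones that assemble the core, and Psmg4 rose by 0.26 (adjusted p = 0.00588, limma). Psmg3 was at 0.30 (adjusted p = 0.117) and passed without Sham pool 2 (0.46, adjusted p = 0.0192), while Psmg1 and Psmg2 were at -0.056 and 0.016 with overlapping pools. The interferon core stood in 9.5% of all promoters and in 4 of 7 of members that rose (Psmb2, Psmd7, Psme2 and Psmg4). It stood in 1 of 19 of members that fell (Psmd11) and in 4 of 16 of those that did not pass. In Psmg4 the match lies after the start site, and the calls of Psmb2, Psmd7 and Psmg4 ended after a second quantile normalization. For members that rose, fell and did not pass, the antioxidant core stood in 1 of 7, 4 of 19 and 2 of 16. The CCAAT box stood in 4 of 7, 8 of 19 and 10 of 16. Whether these motifs bear on the direction was not tested.

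The 2 genes that are named after the proteasome without being part of it both fell. Psmc3ip, a factor of meiotic recombination, was at -0.81 ± 0.103, adjusted p = 1.68e-05 in limma, and Psme3ip1, which binds the activator subunit Psme3, at -0.59 ± 0.0593, adjusted p = 1.81e-06. Without them 19 of 44 members fell and 7 rose, where 28.6% of all genes fell and 30.3% rose, and the median was -0.13.

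Genes that work with the proteasome changed in both directions between OVX and Sham pools. Among all genes 28.6% fell and 30.3% rose in that comparison, the background for the counts given here. Of 19 measured partners 8 fell and 2 rose, with a median of -0.17. Ubqln4, a carrier of ubiquitinated proteins, was at -1.19 ± 0.0712, adjusted p = 1.27e-08 (limma), and Uchl5, a deubiquitinase bound to the regulatory particle, at -1.13. Txnl1, a thioredoxin-like protein bound to the same particle, was at -0.54, and Sem1, the smallest lid subunit, whose symbol lies outside the naming rule, rose by 0.51. Of 10 genes for transcription factors of proteasome genes and their partners 5 fell and 1 rose. The small Maf genes differed, with Mafk at -1.52, Mafg at -0.85 and Maff at 0.65 (adjusted p = 5.52e-10, 1.22e-07 and 0.00316 by limma), and Foxo4 was at -0.66. Nfe2l1, the main activator of proteasome genes, was at -0.18 and did not pass (adjusted p = 0.119, limma), a gene picked after its value was seen. The E1 enzymes that activate ubiquitin, Uba1 (-0.16) and Uba6 (0.015), did not pass either.

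Antigen presentation, which uses the peptides of the proteasome, had 5 genes that rose and 3 that fell of 9. In OVX against Sham 30.3% of all genes rose and 28.6% fell, the background for this and the following lists. Nlrc5, the transactivator of MHC class I genes, fell by 1.03 and the peptide transporter gene Tap2 by 0.90, whereas the peptide-loading chaperones Calr and Pdia3 rose by 0.92 and 0.71. Interferon signalling was divided evenly, with 4 of 15 genes up and 4 down, among them Gbp2 (1.53), Ifngr2 (1.08), Irf9 (-1.35) and Irf7 (-1.32). Of 19 chaperones 9 fell and 4 rose, led by Hspb8 (-3.23), Hspb1 (-2.37) and Hspa1a (-1.73), while Hspa5, the chaperone of the endoplasmic reticulum, rose by 0.87. Of the ubiquitin ligases of wasting muscle Trim63 fell by 3.57 and Fbxo30 by 1.10, and Fbxo32 was at 0.030 (adjusted p = 0.897, limma). The markers of skeletal muscle fell in the same pools, and their part in the fall of Trim63 was not tested.

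No proteasome gene passed the test for either BB diet in ovariectomized rats. By limma at 0.05, 0 of the 46 members passed in LTBB OVX against OVX, STBB OVX against OVX or STBB OVX against LTBB OVX, and the share of all genes called was 0% in each. At an unadjusted p under 0.05 there were 2, 0 and 1 members, beside 329, 411 and 484 of 14217 genes. The median log2 fold change of the members was 0.018 in LTBB OVX against OVX, 0.0028 in STBB OVX against OVX and -0.016 in STBB OVX against LTBB OVX, and the medians of all genes were -0.0056, -0.0088 and -0.0033. The pools did not overlap for 2 members (4.35%), 5 members (10.9%) and 2 members (4.35%), against 8.7%, 9.38% and 10.9% of all genes. Every 95% interval of the 46 members lay within a log2 of 1 on either side of 0 in the 3 comparisons, and within 0.5 for 45, 46 and 46 members. Across the 9 pools of ovariectomized rats the range of a member had a median of 0.182, with Psma4 the narrowest at 0.0729. Skeletal muscle markers varied among these pools, with a mean centred value of -0.19 to 0.50 in STBB OVX pools and -3.46 to 0.66 in LTBB OVX pools, against -3.34 to -1.38 in OVX pools, and their part in the differences was not tested.

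The smallest unadjusted p-values among the members belonged to Psmd12 in LTBB OVX against OVX, Psmb7 in STBB OVX against OVX and Psmd13 in STBB OVX against LTBB OVX. Psmd12 had centred log2 values of -0.046, 0.049 and 0.14 in LTBB OVX pools, against -0.48, -0.027 and -0.22 in OVX pools. Its groups overlapped, and the difference of 0.29 had an interval of 0.028 to 0.55 (unadjusted p = 0.033, adjusted p = 1 by limma). Psmd13 had 0.039, 0.10 and 0.052 in LTBB OVX pools, against -0.15, -0.070 and -0.043 in OVX pools. It did not overlap, at 0.15 (adjusted p = 1, limma). In STBB OVX pools Psmd13 had -0.039, -0.10 and -0.13, all under the LTBB OVX pools, with a difference of -0.15 (unadjusted p = 0.0401, adjusted p = 1 by limma). Psmb7 had 0.0037, 0.12 and -0.0037 in STBB OVX pools, against -0.091, -0.072 and -0.076 in OVX pools, without overlap and with a difference of 0.12 (unadjusted p = 0.134, limma). None of the 3 immunoproteasome genes passed for either diet, and their pools overlapped with the OVX pools except for Psmb9 in STBB OVX. Psmb9 had -0.17, -0.0033 and -0.14 in STBB OVX pools, against 0.0033, 0.072 and 0.077 in OVX pools. As differences of group means from OVX, Psmb9 was at -0.072 in LTBB OVX and -0.15 in STBB OVX, Psmb10 at -0.066 and -0.11, and Psmb8 at -0.092 and -0.034. The 2 comparisons share the OVX pools.

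**Figure D4:**
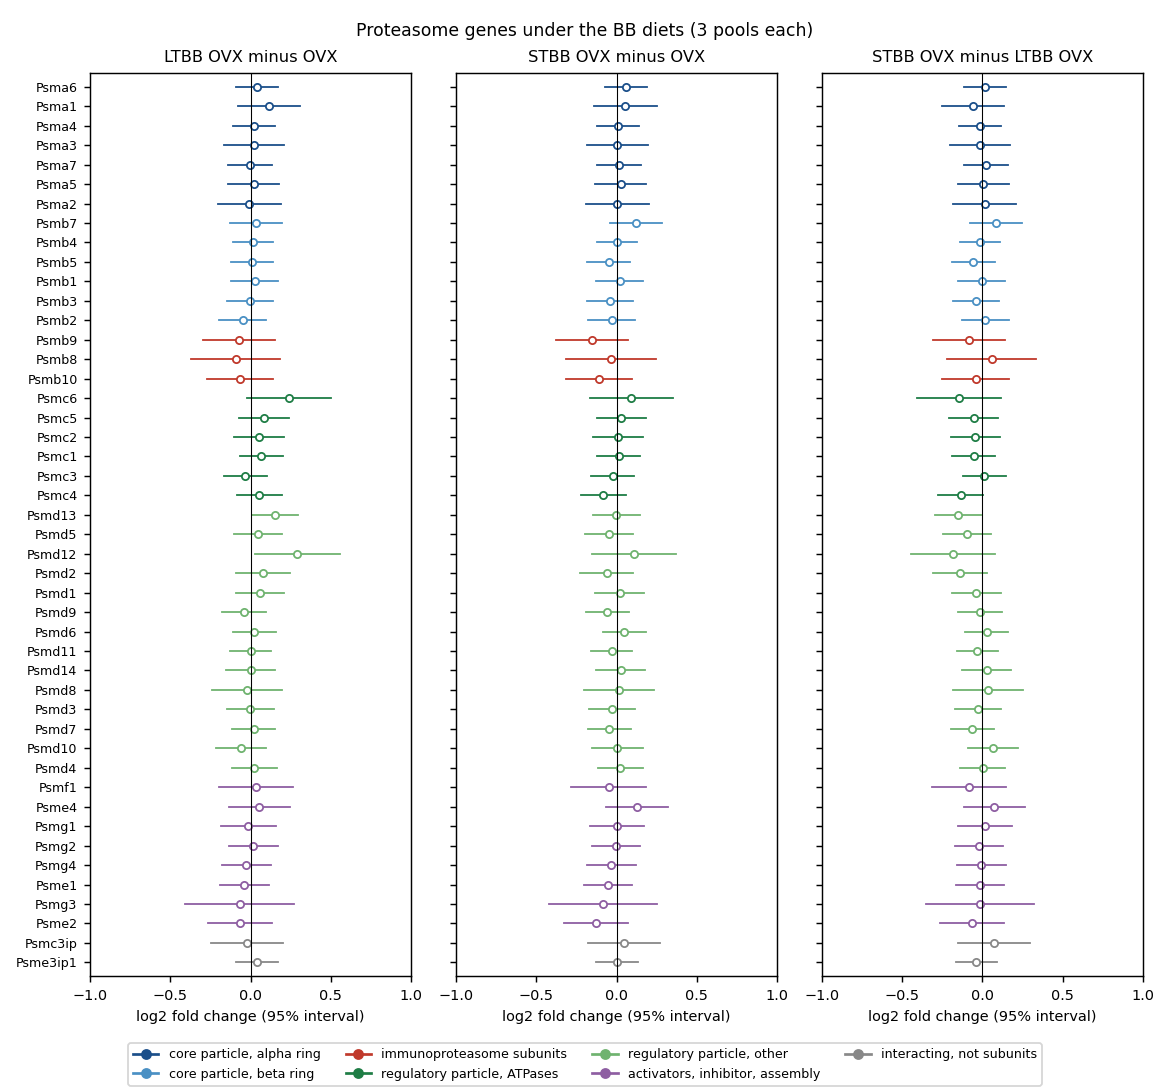
Log2 fold changes of the 46 proteasome genes (x axis) in LTBB OVX against OVX, STBB OVX against OVX and STBB OVX against LTBB OVX, 1 row per gene, coloured by role, with 95% intervals of limma from 3 pools per group. None passed an adjusted p of 0.05, and Psmd12 has the widest departure, 0.29 in LTBB OVX against OVX.

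The groups on the BB diets were also set against Sham, in comparisons that share the Sham pools with that of OVX. In LTBB OVX against Sham 20 members fell (29.1% of all genes fell) and 6 rose (29.2% of all genes rose), with a median of -0.12. In STBB OVX against Sham 21 fell (29% of all genes) and 7 rose (29.3%), with a median of -0.14. Psmf1 was at -1.21 in LTBB OVX and -1.30 in STBB OVX, Psmd13 at -0.69 and -0.85, Psmc6 at -0.54 and -0.69, and Psme2 at 0.45 and 0.39, all past the threshold of limma. Psma2 passed in STBB OVX (0.23, adjusted p = 0.0415) and did not in LTBB OVX (0.22, adjusted p = 0.0535), and the difference between the diets was 0.014. The pool number was also fitted as a block, which gave same-numbered pools of all 4 groups a shared term, OVX pools included. Under it Psma2 passed in LTBB OVX too (adjusted p = 0.035, limma). In STBB OVX, Psmb9 passed as lower (-0.25, adjusted p = 0.0454, against 0.0537 without the block, limma). Psmd12 no longer passed there (-0.32, adjusted p = 0.0519, against 0.0387, limma). After a second quantile normalization no member passed in LTBB OVX against Sham, and 3 fell and none rose in STBB OVX against Sham. All genes that passed then numbered 2282 and 2158.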

How the data were processed

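RNA of 12 pools was hybridized to Affymetrix rat genome arrays. The authors deposited log2 values that they made by robust multiarray analysis, floored and normalized per array and per gene in GeneSpring. GCOS and RMA are the tools in the submitters' processing notes, with versions not given in the sources used here. After 57 controls were left out, 31042 probe sets remained, of which the platform annotation gives 20826 a single symbol, 436 several and 9780 none. Of those with a single symbol, 20758 had a gene ID found in RefSeq (GRCr8). The current symbol of that ID was used, whether or not it differed. No filter on dim probe sets was applied. Where several probe sets named the same gene and no other, their mean stood for it.

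Group means were fitted over all 12 arrays in limma 3.58.1 (R 4.3.3), with 6 contrasts, moderated variances and Benjamini-Hochberg adjustment over 14217 genes. Fold changes carry the moderated SE and intervals are at 95%. The fit was also run on simulated data with independent noise and few changed genes. Those differ from the real arrays, where 58.9% of genes were called in OVX against Sham, and their outcome is not used here. Groups are those of the labels. Members and lists were chosen with earlier results of these data known, and Psme3ip1 was put beside Psmc3ip after the data were seen. Values in every OVX and Sham pool are printed for the immunoproteasome genes and for Psmb5 and Psmb7, the partners that were analysed. Each other class has them for up to 4 genes with the largest change in OVX against Sham and the 1 with the smallest. The exceptions are Psmc3ip and Psme3ip1, which are given by their fold changes. Pathway lists name up to 4 genes, and marker lists are given by counts and scores. Alternatives were quantile normalization, array centring, array weights, fits by pairs of groups, no Sham arrays, the pool number as a block, probe sets without a cross-hybridization suffix, 1 probe set per gene, stricter thresholds and each array left out. Same-numbered pools had correlated deviations between each BB group and Sham (0.104 to 0.232 in 6 of 6 pairs). The other 12 pairs ran from -0.38 to 0.086. This grouping of pairs was taken from the data and not from the labels. Deviations are from the mean of 3 pools, so pairs of the same groups are not independent, and no pairing is established. The number of arrays limits the precision. Promoter sequences are from RefSeq. Protein sequences, RT-PCR and cell cultures were not used here. Python 3.11.15 and matplotlib 3.10.9 drew the figures.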

Additional observations from a re-analysis of the deposited data

How the results depend on the processing

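Quantile normalization of the arrays once more left 2006 genes called in OVX against Sham, with 1 member higher, 3 lower and a median of -0.081, 0 core subunits in either direction, 0 regulatory particle genes higher and 1 lower (median -0.15), and 1 activator or assembly gene in each direction. In LTBB OVX against OVX the median became 0.045, and 2 genes were called in STBB OVX against OVX and 9 in STBB OVX against LTBB OVX, with no member among them. It left 2282 genes and 0 members in either direction in LTBB OVX against Sham (median -0.069), and 2158 genes, 0 members higher and 3 lower in STBB OVX against Sham (median -0.081). With array weights the medians in OVX against Sham were -0.18 for members, -0.25 for the regulatory particle and 0.041 for activators and assembly genes, 1 core subunit rose, and the median in STBB OVX against Sham was -0.17. Fitting only the groups compared left 4 members, 1 core subunit and 0 regulatory particle genes higher, and called 40 genes in STBB OVX against OVX, none of them a member. With 1 probe set per gene, 1 core subunit rose and the regulatory particle had a median of -0.33. A fold of at least 1.5 left 4319 genes in OVX against Sham, with 0 members higher and 5 lower, 0 core subunits in either direction, 0 regulatory particle genes higher and 2 lower, and 0 activators or assembly genes higher and 1 lower, and it left 4291 genes (0 members higher, 3 lower) in LTBB OVX and 4333 (0 higher, 4 lower) in STBB OVX against Sham. At an adjusted p under 0.01, 4 members, 1 core subunit and 0 regulatory particle genes rose in OVX, and 3 members in STBB OVX, against Sham. The cause of these shifts was not tested, and the quantile normalization was run on values already centred for every probe set. Centring each array and leaving out probe sets with a cross-hybridization suffix kept every such count within 1.5 times. Leaving out the Sham arrays allowed only the comparisons among ovariectomized rats, where no member was called with or without them. That setting says nothing of the counts against Sham.

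With each array left out in turn, OVX against Sham had 5 to 8 members higher and 19 to 24 lower, with a median of -0.18 to -0.13. Core subunits had 1 to 3 higher and a median of -0.15 to -0.066, immunoproteasome genes 0 to 1 higher, 0 to 1 lower and a median of -0.18 to 0.057, and the regulatory particle 1 to 2 higher and a median of -0.24 to -0.20. The members' median ranged over -0.0053 to 0.028 in LTBB OVX against OVX, -0.021 to 0.020 in STBB OVX against OVX, -0.044 to -0.012 in STBB OVX against LTBB OVX, -0.17 to -0.091 in LTBB OVX against Sham and -0.19 to -0.14 in STBB OVX against Sham, where 4 to 8 members were higher. Genes called numbered 0 to 8 in STBB OVX against OVX and in STBB OVX against LTBB OVX, the 8 in both without LTBB OVX pool 3. All these values kept the sign of their direction except the medians of the immunoproteasome, of LTBB OVX against OVX and of STBB OVX against OVX. Of 28 member calls in OVX against Sham, 23 passed whichever array was left out.

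Deviations of same-numbered pools correlated at 0.104 to 0.232 in all 6 pairs of a BB group with Sham, and at -0.38 to 0.086 in the other 12 pairs. With the pool number as a replicate block, 8 members rose and 21 fell in OVX against Sham and 8196 genes passed, with Psmd10 the 1 member whose call changed (adjusted p = 0.0451, limma). Under the block 7 members rose and 20 fell in LTBB OVX against Sham, and 7 rose and 21 fell in STBB OVX against Sham. The calls that changed there were Psma2 in LTBB OVX and Psmb9 and Psmd12 in STBB OVX, and no member was called between the groups of ovariectomized rats.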
